A study of Mus musculus with 6 samples.

Results

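The integrins, cadherins and Icam proteins are cell adhesion molecules, and 48 of the 22354 genes in the deposited table carry their names. They were taken by symbol, as every gene beginning Itga, Itgb plus a digit, Cdh plus digits, or Icam plus a digit. The 48 genes are 18 integrin alpha chains, 9 integrin beta chains, 14 cadherins, 4 Icam genes and 3 genes that the pattern catches although they are not integrins (Itgb1bp1, Itgb1bp2 and Itgb3bp, named for proteins that bind integrin beta chains). The rule uses symbols and no measured value.

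Colon RNA was sequenced from 3 Smad4 knockout mice and from 3 SMAD4+ wild-type mice, all C57BL/6J and all dissected 1 month after tamoxifen. The name of the knockout genotype joins Smad4 to Lrig1, a gene known to mark stem cells of the colonic epithelium; the alleles themselves, and whether wild-type mice carried any part of them, are not stated in the labels. EDTA was used to free the crypts, and what lay above the muscle was then scraped off for RNA. Library totals ran from 18918880 to 25867997 counts, and the adhesion genes together held 0.417% to 0.509% of them. The labels name separate mice, so each library was taken as 1 biological replicate.

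The targeted gene, Smad4, had 2000, 2150 and 1329 counts in the knockout libraries and 2871, 2840 and 2784 counts in the wild-type libraries. Every knockout library lay below every wild-type library, and the knockout mean was 64.0% of the wild-type mean after scaling. Its fitted log2 difference, -0.64 ± 0.21 (SE), missed the threshold of the edgeR quasi-likelihood test (adjusted p = 0.338), and neither DESeq2 (adjusted p = 0.0799) nor the edgeR exact test (adjusted p = 0.103) called it. The labels do not say which part of the gene is deleted, and reads outside that part check nothing about the deletion.

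The scraped layer is described by the submitters as stroma, but epithelial markers dominated it. The 10 epithelial markers (keratins, Epcam, Vil1, Muc2 and others) summed to 20440 to 22457 CPM (counts scaled to library size) in knockout libraries and to 18655 to 27051 CPM in wild-type libraries. The 6 fibroblast markers summed to 8.27 to 12.9 CPM in knockout libraries and to 3.39 to 4.91 CPM in wild-type libraries. The 7 blood endothelial markers summed to 5.06 to 7.73 CPM in knockout libraries and to 3.75 to 4.45 CPM in wild-type libraries, and among them Kdr, Tek, Emcn, Esam and Cldn5 had at most 6 counts in any library. The 5 smooth muscle markers summed to 14.1 to 15.2 CPM in knockout libraries and to 14.7 to 52.0 CPM in wild-type libraries, the highest sum being that of wild-type replicate 1. The 6 pan-leukocyte markers (Ptprc, Coro1a, Laptm5, Cd52, Cd53 and Rac2) summed to 115.6 to 256.9 CPM in knockout libraries and to 70.5 to 81.6 CPM in wild-type libraries. Knockout replicate 3 had the lowest leukocyte sum of its group and wild-type replicate 1 the highest smooth muscle sum. The counts of called adhesion genes, the class difference and a few named adhesion genes are also given below without 1 of these libraries. Marker genes, partner genes and ratios are given with all libraries only.

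Integrins are receptors made of 1 alpha and 1 beta chain, each spanning the membrane, and bind matrix proteins or ligands on other cells once talin and kindlin have engaged the beta tail. Leukocytes use integrins that hold the Itgb2 or Itgb7 chain to arrest on vessel walls, to contact other cells and to stay in the gut, while epithelial cells use the Itga6 and Itgb4 pair and Itgb1 partners to hold on to the basement membrane. Classical cadherins join like cells through calcium-dependent contacts that catenins link to actin. Icam proteins belong to the immunoglobulin superfamily and are ligands of the Itgb2 integrins.

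After the filter on low counts, which asked for about 0.470 CPM in at least 3 libraries, 31 of the 48 genes were tested among 14180 genes in all. By edgeR's quasi-likelihood test with Benjamini-Hochberg adjustment, 0 of the 31 passed an adjusted p of 0.05, and so did 0 of all tested genes (0%). Before adjustment, 10 of the 31 had p under 0.05 and a higher level in knockout, against 5.19% of all tested genes, and 0 had p under 0.05 and a lower level, against 3.35% (8.54% in either direction). DESeq2 called 5 of the 31 higher (Itgb3, Itga4, Itgal, Itgb2 and Itgb7), against 1.97% of the genes it adjusted, and the edgeR exact test called the same 5 and Icam2, against 2.36%. Neither tool called one of them lower, against 0.331% of genes by DESeq2 (2.31% in either direction) and 0.324% by the exact test (2.69% in either direction), and limma-voom called 0 of them and 0% of all tested genes. The authors' deposited table, with 2.37% of its genes higher at an adjusted p of 0.05 and 2.86% in either direction, has the same 6 genes past that threshold. Icam2, Itgb3 and Itgb8 passed the low-count filter only through the knockout libraries, so their place among the tested genes already depended on a higher level there.

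The fold changes of the 31 tested genes leaned to the knockout side. Of these, 24 had a positive fold change, against 46.9% of all tested genes, and their median log2 fold change was 0.23, against -0.01 for all tested genes. In 9 of the 31 every knockout library lay above every wild-type library, against 6.76% of all tested genes, and in 0 of them did every knockout library lie below, against 6.52%. Icam2, Itgb3 and Itgb8 are among both the 24 and the 9. They passed the filter only through the knockout libraries, so they cannot count towards the lean. By class the median log2 fold change was 0.64 for the 9 leukocyte integrin genes and 0.15 for the 7 tested epithelial genes. The broad or stromal integrins had a median of 0.21 over 10 tested genes, Itgb3 and Itgb8 included. The medians of 0.21 and of 0.23 for all 31 thus hold genes that passed the filter only through knockout. Neither median measures the lean without those genes.

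**Figure D1:**
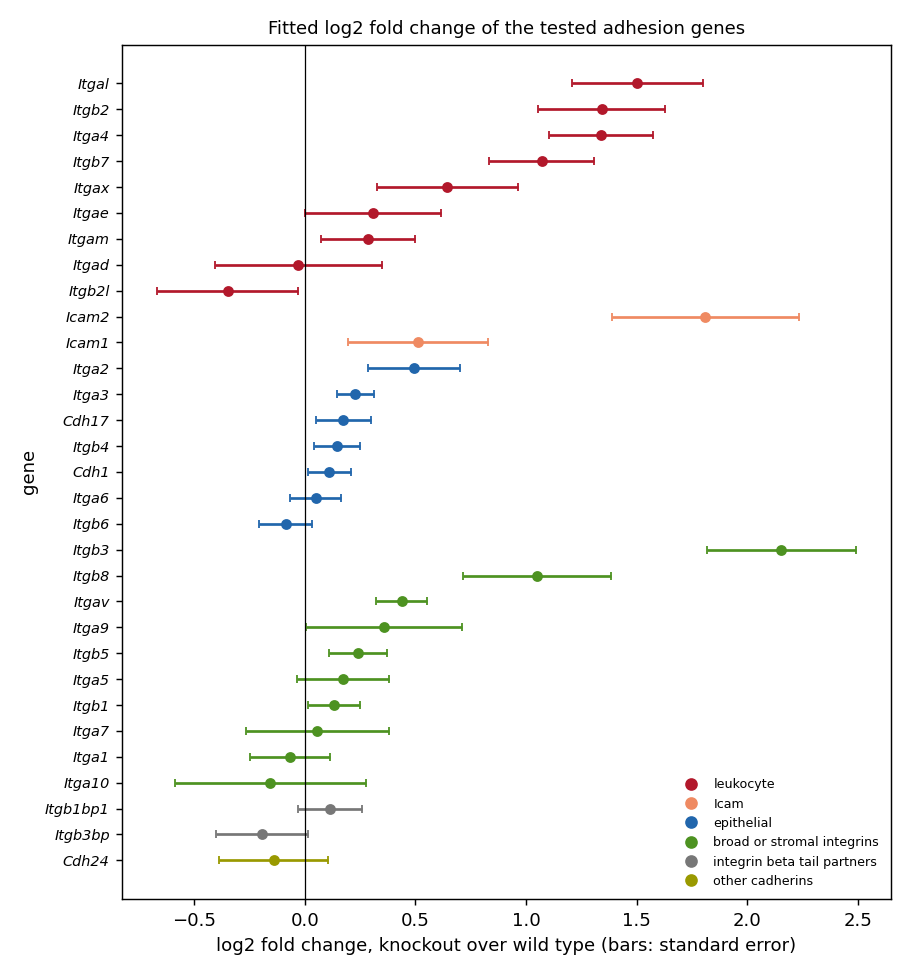
Log2 fold change, knockout over wild type (x axis), of each of the 31 tested adhesion genes (y axis), coloured by class; points are edgeR quasi-likelihood estimates from 3 against 3 libraries and bars their standard errors. Itgb3 stands farthest right at 2.15, and the 7 epithelial genes lie between -0.09 and 0.49.

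The leukocyte integrin genes with the largest differences between groups were Itgal, Itgb2, Itga4 and Itgb7. In bulk tissue, fewer cells of a type and less RNA per cell cannot be told apart, which holds for every value below. Itgal, on chromosome 7 (mm10, 127296260 to 127335138, plus strand), encodes the alpha chain that pairs with Itgb2 on lymphocytes and binds Icam1 and Icam2. It had 17.0, 15.4 and 8.13 CPM in knockout libraries (370, 324 and 183 counts), against 4.95, 5.70 and 3.71 CPM in wild-type libraries (108, 106 and 93 counts). The groups did not overlap, although knockout replicate 3 was nearer to the wild-type libraries than the other two. The means were 13.5 ± 4.74 CPM in knockout and 4.79 ± 1.00 CPM in wild type (SD, n = 3 each), and the log2 fold change of 1.5 ± 0.30 (SE) had an adjusted p of 0.111 by the quasi-likelihood test, 1.36e-04 by DESeq2 and 3.53e-04 by the edgeR exact test.

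Itgb2, on chromosome 10 (mm10, 77530252 to 77565708, plus strand), encodes the beta chain shared by the Itgal, Itgam, Itgax and Itgad integrins. Its level was 14.2, 9.74 and 6.35 CPM in knockout libraries and 4.45, 3.65 and 3.83 CPM in wild-type libraries. Again the groups did not overlap and knockout replicate 3 was the lowest of its group. The log2 fold change was 1.34 ± 0.29 (SE), with an adjusted p of 0.133 by the quasi-likelihood test and 0.00127 by DESeq2.

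Itga4, on chromosome 2 (mm10, 79255426 to 79333123, plus strand), encodes the alpha chain that pairs with Itgb7 to bind Madcam1 in gut venules and with Itgb1 to bind Vcam1. It had 13.4, 13.3 and 7.5 CPM in knockout libraries and 4.36, 4.51 and 4.67 CPM in wild-type libraries. Its wild-type libraries lay close together, and each knockout library was above all of them. The means were 11.4 ± 3.4 CPM in knockout and 4.51 ± 0.154 CPM in wild type (SD, n = 3 each), 2.53-fold apart, with an adjusted p of 0.0982 by the quasi-likelihood test and 7.18e-05 by DESeq2. Of the exon bases of Itga4, 8.04% lie opposite those of Cerkl, and whether the counting used strand is not stated in the labels.

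Itgb7, on chromosome 15 (mm10, 102215995 to 102231944, minus strand), encodes the partner of both Itga4 and Itgae. It had 12.2, 9.74 and 7.5 CPM in knockout libraries and 5.18, 3.44 and 5.34 CPM in wild-type libraries. The groups did not overlap. The log2 fold change was 1.07 ± 0.24 (SE), with an adjusted p of 0.145 by the quasi-likelihood test and 0.00477 by DESeq2.

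Without knockout replicate 3, 5 of the adhesion genes passed the quasi-likelihood test at an adjusted p of 0.05 (Icam2, Itga4, Itgal, Itgb2 and Itgb3), as did 266 of all tested genes. Without any other single library, 0 of the adhesion genes passed that test. The log2 fold changes of Itgal, Itgb2, Itga4 and Itgb7 by the quasi-likelihood fit stayed between 0.88 and 1.78 whichever single library was left out.

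The other leukocyte integrin genes differed less, and none of them passed a test. Itgae encodes the alpha chain of the integrin by which intraepithelial lymphocytes bind E-cadherin. It had 9.80, 4.32 and 4.97 CPM in knockout libraries and 4.68, 5.05 and 5.66 CPM in wild-type libraries. Only knockout replicate 1 was above the wild-type range, and knockout replicate 2 was below it. The log2 fold change was 0.31 ± 0.31 (SE, adjusted p = 0.893 by the quasi-likelihood test), and without knockout replicate 1 it was -0.14. The same library was the high one for Cd8a, a co-receptor of cytotoxic T cells, which had 225, 102 and 123 counts in knockout libraries and 92, 92 and 112 counts in wild-type libraries. Cd3d, Cd3e, Cd3g, Lck and the pan-leukocyte gene Ptprc were also highest in knockout replicate 1. The T cell markers Cd8b1 (11, 16 and 8 counts in knockout libraries), Cd4 and Cd5 were highest in knockout replicate 2. A link between Itgae and Cd8a was not tested.

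Itgam and Itgax encode alpha chains of myeloid cells, Itgax being widely used as a dendritic cell marker. Itgam was measured at 9.71, 6.46 and 9.32 CPM in knockout libraries, against 5.46, 7.63 and 7.86 CPM in wild-type libraries, with overlapping groups and a log2 fold change of 0.28 ± 0.21 (SE). Itgax was measured at 4.32, 2.71 and 1.86 CPM in knockout libraries, against 1.74, 1.99 and 1.95 CPM in wild-type libraries, with overlapping groups and a log2 fold change of 0.64 ± 0.32 (SE). The adjusted p by the quasi-likelihood test was 0.832 for Itgam and 0.663 for Itgax. Of the exon bases of Itgam 68.7% are shared with the overlapping model Gm49368 of GENCODE M21. If the annotation used for the counting held that model, Itgam reads may have been split or dropped. Itgad and Itgax share 51-base stretches with each other. Itgad had a mean of 0.764 ± 0.381 CPM in knockout and 0.781 ± 0.0242 CPM in wild type (SD, n = 3 each). Itgb2l, a paralog of Itgb2, had 1.73 ± 0.542 CPM in knockout and 2.20 ± 0.615 CPM in wild type (SD, n = 3 each).

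**Figure D2:**
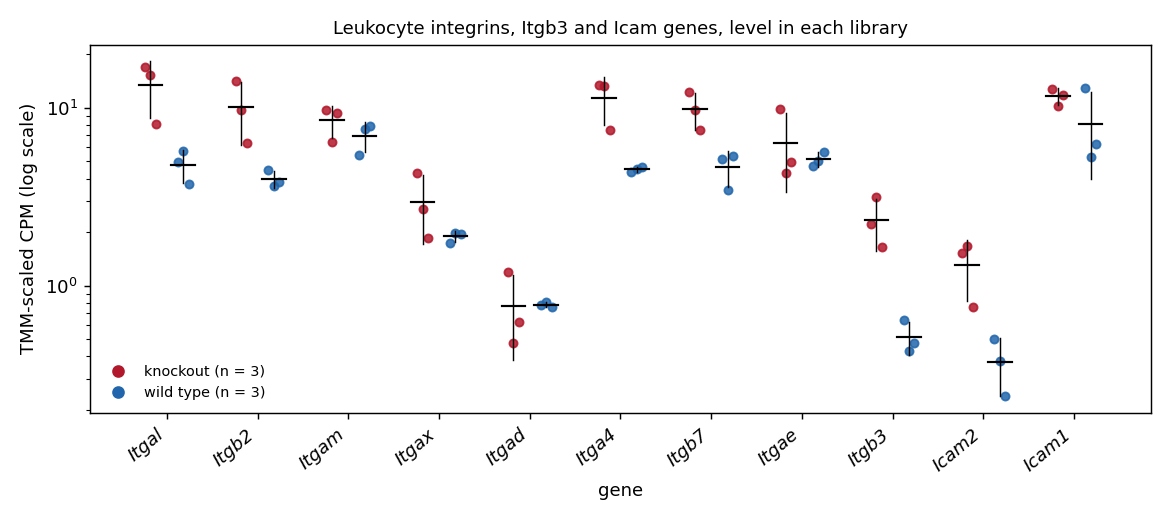
Scaled level (TMM-scaled CPM, log axis) of 11 genes in each library, with knockout points left of wild-type points; black horizontal lines are group means and vertical lines ± 1 SD (n = 3). For Itgal, Itgb2, Itga4, Itgb7, Itgb3 and Icam2 every knockout library lies above every wild-type library, and for the other 5 genes the groups overlap.

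The leukocyte integrins were also set against genes of the same cells. As a share of the summed pan-leukocyte CPM, Itgal stood at 6.67 ± 0.343% in knockout and 6.32 ± 1.18% in wild type (SD, n = 3 each). Itga4 stood at 5.74 ± 0.664% in knockout and 5.98 ± 0.388% in wild type, and the groups overlapped for both genes. Itgb2 (5.01% in knockout, 5.30% in wild type) and Itgb7 (5.09% in knockout, 6.23% in wild type) overlapped as well. DESeq2 called all 6 pan-leukocyte genes and all 7 B cell markers higher, against 1.97% of all genes. Of the 9 leukocyte integrin genes it called 4 higher, the 4 set out here, which are also those with the largest differences. It called 1 of the 7 tested T cell markers higher, and 1 of the 7 tested markers of monocytes, macrophages and dendritic cells. The B cell marker sum was 66.4 to 145.9 CPM in knockout libraries and 23.1 to 35.5 CPM in wild-type libraries. The T cell markers summed to 26.7 to 44.2 CPM in knockout libraries and to 18.6 to 22.9 CPM in wild-type libraries. The part that the number of leukocytes plays in the integrin values was not tested.

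Relative to the pan-leukocyte genes, Itgae and Itgax lay lower in knockout. The pan-leukocyte sum was itself higher in every knockout library, at 115.6 to 256.9 CPM against 70.5 to 81.6 CPM in wild type. A gene of unchanged level would therefore also have a lower share, so these ratios do not show a lower level of Itgae or Itgax. Itgae was 3.81%, 1.78% and 4.30% of the pan-leukocyte sum in knockout libraries and 6.63%, 6.19% and 7.56% in wild-type libraries. Every knockout library lay below every wild-type library. Itgax was 1.68%, 1.12% and 1.61% of that sum in knockout libraries and 2.47%, 2.44% and 2.61% in wild-type libraries, again without overlap. Itgam averaged 4.84 ± 2.85% in knockout and 9.19 ± 1.38% in wild type (SD, n = 3 each), with knockout replicate 3, at 8.07%, inside the wild-type range. The summed markers of monocytes, macrophages and dendritic cells were 158.9 to 211.2 CPM in knockout libraries and 128.7 to 185.9 CPM in wild-type libraries, and most of each sum was Cd14, which averaged 133 ± 24.7 CPM in knockout and 131 ± 31.6 CPM in wild type (SD, n = 3 each). All 7 tested genes of that list had a positive log2 fold change, against 46.9% of all tested genes, and their median was 1.13. By the quasi-likelihood test 5 of them had an unadjusted p under 0.05 and a higher level in knockout, against 5.19% of all tested genes. Lyz2, the lysozyme of myeloid cells, averaged 33.8 ± 16.0 CPM in knockout and 10.5 ± 2.07 CPM in wild type, without overlap, with an adjusted p of 6.46e-05 by DESeq2 and 0.134 by the quasi-likelihood test. Csf1r and Flt3 were also higher in every knockout library than in any wild-type library. With Ptprc alone as the denominator the groups for Itgae and Itgax did not overlap either. The smallest two-sided p of an exact permutation of 3 against 3 libraries is 0.1, so these ratios are given without a test.

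**Figure D3:**
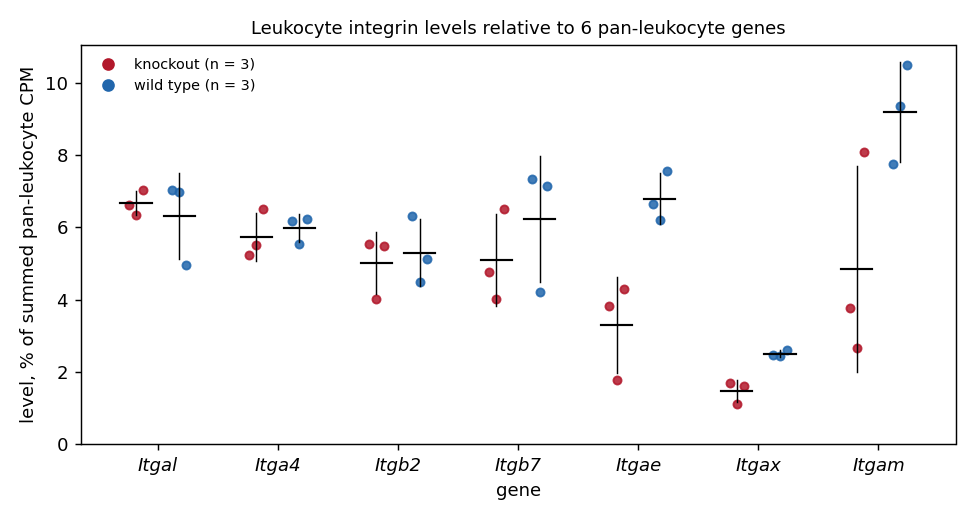
Level of 7 leukocyte integrin genes as a percentage of the summed CPM of 6 pan-leukocyte genes (y axis, from 0) in each library, knockout left of wild type; black lines are means and ± 1 SD (n = 3). Itgae and Itgax lie lower in every knockout library than in any wild-type library, while Itgal, Itga4, Itgb2, Itgb7 and Itgam overlap.

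Partners within 1 receptor were set side by side in the same way. The CPM ratio of Itgal to Itgb2 averaged 135.3 ± 20.2% in knockout and 121.4 ± 30.8% in wild type (SD, n = 3 each). That of Itga4 to Itgb7 averaged 115.6 ± 19.2% in knockout and 100.9 ± 26.4% in wild type, and neither ratio separated the groups. The ratio of Itgae to Itgb7 did: it was 80.1%, 44.4% and 66.3% in knockout libraries and 90.3%, 146.9% and 106.0% in wild-type libraries. Itgae relative to Itga4 averaged 57.2 ± 21.7% in knockout and 113.5 ± 7.14% in wild type (SD, n = 3 each), also without overlap. These are ratios of counts without a length scale, and they compare libraries and not the amounts of the chains. Itgb7 and Itga4 were themselves higher in every knockout library, so an unchanged Itgae would also give lower ratios to them.

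RefSeq promoter sequences (GRCm38.p6, the assembly also called mm10) were matched by symbol to 30 of the 48 genes, at 32 start sites. They are shown for a pair of gut-homing chains that DESeq2 called higher, Itga4 and Itgb7, and for a pair of myeloid chains that it did not call, Itgam and Itgax. Each is the 250 bases before the start, 5′ to 3′ on the gene's own strand. Capitals mark matches, on either strand, to GAGGAA (a core bound by the myeloid factor PU.1), TGTGGT (the RUNX core) or CAGAC (the Smad box); CACCTG (an E-box) was searched too. The windows are chr2:79255176-79255425 (plus strand) for Itga4, chr15:102231936-102232185 (minus strand) for Itgb7, chr7:128062390-128062639 (plus strand) for Itgam and chr7:128129300-128129549 (plus strand) for Itgax.
Itga4: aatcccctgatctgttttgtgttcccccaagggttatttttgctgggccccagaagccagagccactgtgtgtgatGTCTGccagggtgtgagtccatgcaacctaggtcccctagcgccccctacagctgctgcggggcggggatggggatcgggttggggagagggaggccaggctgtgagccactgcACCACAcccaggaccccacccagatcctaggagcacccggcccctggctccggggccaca
Itgb7: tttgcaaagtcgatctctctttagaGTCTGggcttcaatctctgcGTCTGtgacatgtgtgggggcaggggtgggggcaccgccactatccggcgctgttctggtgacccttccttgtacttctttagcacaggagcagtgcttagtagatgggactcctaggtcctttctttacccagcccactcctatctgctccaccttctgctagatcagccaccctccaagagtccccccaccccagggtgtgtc
Itgam: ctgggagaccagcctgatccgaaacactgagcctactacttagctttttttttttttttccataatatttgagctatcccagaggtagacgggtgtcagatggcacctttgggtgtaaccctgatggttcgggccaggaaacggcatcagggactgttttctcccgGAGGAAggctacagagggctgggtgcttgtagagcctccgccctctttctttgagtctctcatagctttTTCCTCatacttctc
Itgax: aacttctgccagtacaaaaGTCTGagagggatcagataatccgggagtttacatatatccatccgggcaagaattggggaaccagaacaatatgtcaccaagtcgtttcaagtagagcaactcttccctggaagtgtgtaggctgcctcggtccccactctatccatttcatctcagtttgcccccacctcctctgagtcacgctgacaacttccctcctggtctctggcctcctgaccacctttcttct
The Itga4 window holds 1 RUNX core, 60 to 55 bases before the start, and 1 Smad box, 174 to 170 bases before it, both on the opposite strand. The Itgb7 window holds 2 Smad boxes on the opposite strand. The Itgam window holds 2 PU.1 cores, the nearer of them 15 to 10 bases before the start. The Itgax window holds 1 Smad box, 231 to 227 bases before the start. None of these matches overlapped another.

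Such short strings are common. Over 32851 promoter windows of the same length, 42.2% hold CAGAC, 23.3% GAGGAA, 17.2% CACCTG and 14.0% TGTGGT on at least 1 strand. Among the 32 start sites of adhesion genes, 15 hold CAGAC, 13 GAGGAA, 7 CACCTG and 3 TGTGGT. A match is a description of the letters in the window and not a binding site.

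Itgb3 had the largest fold change of the tested adhesion genes, from few reads. It encodes the beta chain of the platelet fibrinogen receptor, with Itga2b, and of a vitronectin receptor, with Itgav. It lies on chromosome 11 (mm10, 104608000 to 104670476, plus strand). It had 48, 66 and 37 counts in knockout libraries and 14, 8 and 12 counts in wild-type libraries, without overlap. The scaled means were 2.33 ± 0.753 CPM in knockout and 0.517 ± 0.111 CPM in wild type (SD, n = 3 each), and the log2 fold change was 2.15 ± 0.34 (SE). The adjusted p was 0.0958 by the quasi-likelihood test, 5.20e-04 by DESeq2 and 2.50e-05 by the edgeR exact test. The authors' deposited table gives it a log2 fold change of 1.57 and an adjusted p of 2.57e-05.

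The alpha partners of Itgb3 had smaller differences. Itga2b, the platelet alpha chain, did not pass the filter and had 7, 8 and 2 counts in knockout libraries and 11, 14 and 11 in wild-type libraries. Every knockout library was below every wild-type library, at counts too low to pass the filter. The platelet markers Pf4, Ppbp and Gp9 summed to 2.16 to 2.40 CPM in knockout libraries and to 1.18 to 2.52 CPM in wild-type libraries, and Ppbp had 0 or 1 count in every library. Itgav had 38.7, 44.7 and 51.3 CPM in knockout libraries and 30.7, 33.8 and 34.8 CPM in wild-type libraries. The groups did not overlap, and the log2 fold change of 0.44 ± 0.12 (SE) had an adjusted p of 0.215 by the quasi-likelihood test and 0.0694 by DESeq2. The ratio of Itgb3 to Itgav was 5.31 ± 1.94% in knockout and 1.58 ± 0.446% in wild type (SD, n = 3 each), without overlap. The ratio of Itgb3 to the pan-leukocyte sum averaged 1.19 ± 0.295% in knockout and 0.692 ± 0.197% in wild type, and its groups overlapped. Relative to Ptprc alone it was 3.25%, 5.29% and 5.15% in knockout libraries and 3.16%, 1.99% and 2.53% in wild-type libraries, without overlap.

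The Itgav promoter window, chr2:83724147-83724396 (plus strand, GRCm38.p6), is shown because this alpha chain was higher in every knockout library while lying outside the leukocyte class. Capitals mark GAGGAA on either strand, and none of the other motifs was found.
Itgav: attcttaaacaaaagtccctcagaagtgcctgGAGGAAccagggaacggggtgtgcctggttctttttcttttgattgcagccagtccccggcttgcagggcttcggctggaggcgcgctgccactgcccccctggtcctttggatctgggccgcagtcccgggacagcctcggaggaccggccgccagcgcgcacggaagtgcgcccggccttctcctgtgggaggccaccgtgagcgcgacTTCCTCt
Its 2 matches lie 218 to 213 and 7 to 2 bases before the start.

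Of the other broad or stromal integrins, Itgb8, an activator of latent TGF-beta together with Itgav, had 0.828, 1.43 and 1.11 CPM in knockout libraries and 0.688, 0.537 and 0.399 CPM in wild-type libraries. The groups did not overlap, the log2 fold change was 1.05 ± 0.33 (SE), and the adjusted p was 0.337 by the quasi-likelihood test and 0.620 by DESeq2. Itgb5, also a partner of Itgav, averaged 57.5 ± 6.76 CPM in knockout and 48.6 ± 7.15 CPM in wild type (SD, n = 3 each), and the groups overlapped. Itgb1, the common partner of most matrix-binding alpha chains, had 407, 378 and 458 CPM in knockout libraries and 330, 413 and 392 CPM in wild-type libraries. These overlapped, with a log2 fold change of 0.13 ± 0.12 (SE). The fibronectin receptor chain Itga5 averaged 30.8 ± 9.18 CPM in knockout and 27.3 ± 3.13 CPM in wild type. The collagen receptor chain Itga1 averaged 8.79 ± 1.62 CPM in knockout and 9.22 ± 1.43 CPM in wild type. Itga7, a laminin receptor chain best known from muscle, averaged 22.9 ± 6.83 CPM in knockout and 22.1 ± 8.38 CPM in wild type. Itga9 and Itga10 were below 2 CPM in every library, with overlapping groups. Of Itga10's exon bases, 33.5% are shared with the model Gm42957.

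The epithelial cadherins Cdh1 and Cdh17 were the most abundant of the adhesion genes. With all 6 libraries, no gene of the epithelial class was called by any of the tools. Cdh1, E-cadherin, the classical cadherin of adherens junctions, lies on chromosome 8 (mm10, 106603351 to 106670246, plus strand). It had 1641, 1702 and 1814 CPM in knockout libraries and 1662, 1627 and 1485 CPM in wild-type libraries. The groups overlapped, the means were 1719 ± 87.7 CPM in knockout and 1591 ± 93.6 CPM in wild type (SD, n = 3 each), and the log2 fold change of 0.11 ± 0.10 (SE) had an adjusted p of 0.881 by the quasi-likelihood test. Cdh17, liver-intestine cadherin, had 1242, 1416 and 1414 CPM in knockout libraries and 1025, 1326 and 1259 CPM in wild-type libraries. The groups overlapped here too, with a log2 fold change of 0.17 ± 0.12 (SE).

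Itga6 and Itgb4 form the laminin receptor of hemidesmosomes. Itga6 had 378, 403 and 422 CPM in knockout libraries and 443, 380 and 338 CPM in wild-type libraries. Itgb4 had 323, 354 and 325 CPM in knockout libraries and 335, 302 and 269 CPM in wild-type libraries. Both genes overlapped between groups, with log2 fold changes of 0.05 ± 0.11 (SE) for Itga6 and 0.15 ± 0.10 (SE) for Itgb4. The CPM ratio of Itga6 to Itgb4 averaged 120.2 ± 8.62% in knockout and 128.0 ± 3.72% in wild type (SD, n = 3 each).

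Itga3, a laminin receptor chain that pairs with Itgb1, had 297, 325 and 340 CPM in knockout libraries and 277, 278 and 266 CPM in wild-type libraries. Of the 7 tested epithelial adhesion genes it was the 1 whose groups did not overlap, against 13.3% of all tested genes in either direction (6.76% higher). A count of 1 in 7 is close to that share. The log2 fold change of Itga3, 0.23 ± 0.08 (SE), had an adjusted p of 0.469 by the quasi-likelihood test and 0.221 by DESeq2. Itga2, a collagen receptor chain, had 65.4, 50.4 and 89.1 CPM in knockout libraries and 41.3, 57.9 and 46.5 CPM in wild-type libraries. The groups overlapped, and the log2 fold change of 0.49 ± 0.21 (SE) had an adjusted p of 0.571 by the quasi-likelihood test. Itgb6, which with Itgav binds latent TGF-beta on epithelia, averaged 29.3 ± 4.5 CPM in knockout and 31.1 ± 1.55 CPM in wild type (SD, n = 3 each). Its log2 fold change of -0.09 ± 0.12 (SE) became 0.03 without knockout replicate 3. Cdh3, P-cadherin, had at most 6 counts in a library and was not tested.

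The Itga2 promoter window, chr13:114932101-114932350 (minus strand, GRCm38.p6), is shown as that of the epithelial gene with the largest fold change. It holds 3 Smad boxes (CAGAC, in capitals), of which 2 are on the opposite strand and 1, at 74 to 70 bases before the start, is on the gene's own strand.
Itga2: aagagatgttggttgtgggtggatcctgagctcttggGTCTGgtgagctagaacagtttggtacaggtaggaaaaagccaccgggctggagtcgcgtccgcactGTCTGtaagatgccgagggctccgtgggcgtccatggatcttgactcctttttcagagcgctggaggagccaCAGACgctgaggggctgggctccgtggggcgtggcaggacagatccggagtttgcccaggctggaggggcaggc
None of the other motifs was found in it.

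**Figure D4:**
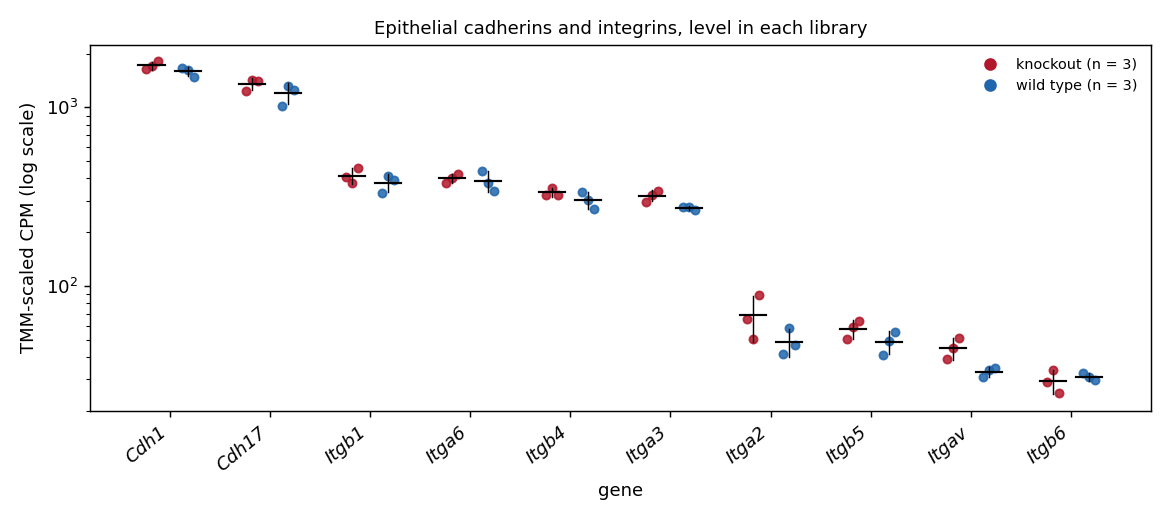
Scaled level (TMM-scaled CPM, log axis) of 7 genes of the epithelial class and neighbours in level, Itgb1, Itgb5 and Itgav, in each library; knockout points are left of wild-type points, and black lines are means and ± 1 SD (n = 3). Cdh1 lies between 1485 and 1814 CPM in all 6 libraries, and among the 10 genes the groups are apart for Itga3 and Itgav.

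Leukocyte against epithelial adhesion genes were summarised in each library as the difference of mean log2 CPM over the tested genes of each class. That difference was -5.32, -5.87 and -6.28 in knockout libraries and -6.27, -6.36 and -6.22 in wild-type libraries. Knockout replicates 1 and 2 lay above the wild-type range, and knockout replicate 3 lay inside it. The knockout mean was 0.465 above the wild-type mean on this log2 scale. That is the rise of 0.622 in the leukocyte genes less the rise of 0.157 in the epithelial genes. Without knockout replicate 1 the gap was 0.22, and without knockout replicate 3 it was 0.69.

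Of the Icam genes, Icam2 was called higher by the edgeR exact test, and the authors' deposited table also has it past the threshold, but DESeq2 did not call it. Icam2, on endothelium, leukocytes and platelets a ligand of the Itgal integrin, lies on chromosome 11 (mm10, 106377656 to 106388075, minus strand). It had 33, 35 and 17 counts in knockout libraries and 11, 7 and 6 counts in wild-type libraries. The groups did not overlap, and the log2 fold change of 1.81 ± 0.42 (SE) had an adjusted p of 0.161 by the quasi-likelihood test, 0.0805 by DESeq2 and 0.00905 by the edgeR exact test. Its ratio to the pan-leukocyte sum averaged 0.643 ± 0.0483% in knockout and 0.499 ± 0.201% in wild type (SD, n = 3 each), with overlap. Icam1, a ligand induced by inflammatory cytokines, had 12.7, 10.3 and 11.9 CPM in knockout libraries and 12.9, 5.27 and 6.22 CPM in wild-type libraries. Wild-type replicate 1 was above every knockout library while the other wild-type libraries were below them all. The log2 fold change of Icam1 was 0.51 ± 0.32 (SE, adjusted p = 0.777 by the quasi-likelihood test), and without wild-type replicate 1 it was 1.01 by DESeq2 (adjusted p = 1.80e-04) and 1.02 by the quasi-likelihood fit (adjusted p = 0.0690). Wild-type replicate 1 was the library with the highest smooth muscle markers, and the part of that in the Icam1 value was not tested. Icam4 and Icam5 had at most 3 counts in a library, and all exon bases of Icam4 (100%) and 11.7% of those of Icam1 lie opposite the model Gm47079.

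Most cadherins of other tissues were barely detected. Of the 14 cadherin genes, 11 failed the filter. Cdh24, the other one tested, averaged 2.29 ± 0.394 CPM in knockout and 2.53 ± 0.540 CPM in wild type (SD, n = 3 each). Cdh5, the cadherin of endothelial junctions, had 2, 2 and 0 counts in knockout libraries and 4, 1 and 0 counts in wild-type libraries, at about the level of 3 counts below which a gene is not told from 0. Cdh11, a cadherin of fibroblasts, had 12, 7 and 10 counts in knockout libraries and 4, 2 and 10 counts in wild-type libraries. Cdh26 had 9, 9 and 10 counts in knockout libraries and 18, 8 and 13 counts in wild-type libraries. Cdh2, Cdh4, Cdh6, Cdh13, Cdh20, Cdh22 and Cdh23 had 0 to 5 counts in every library. Among the remaining untested genes, Itga8, an integrin chain of smooth muscle and mesenchyme, had 1, 4 and 0 counts in knockout libraries and 11, 1 and 3 counts in wild-type libraries, the highest again in wild-type replicate 1. Itga11 had at most 3 counts in a library, and Itgb1bp2 at most 7. The tested binding proteins were close between groups: Itgb1bp1 averaged 9.34 ± 0.280 CPM in knockout and 8.62 ± 1.26 CPM in wild type, and Itgb3bp 3.63 ± 0.737 CPM in knockout and 4.15 ± 0.415 CPM in wild type (SD, n = 3 each).

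Levels can be compared between genes only per length of transcript, and were divided here by the merged exon length. The merged length can exceed that of a transcript. For Itga6 it is 9025 bases, against 4310 bases for its longest coding transcript. The order below holds for merged exon length only. In CPM per kilobase, Cdh1 was first with 375.8 ± 19.2 in knockout and 347.9 ± 20.5 in wild type, followed by Cdh17 with 303.3 ± 22.3 in knockout and 269.0 ± 35.4 in wild type. Itgb1 (101.6 in knockout, 92.8 in wild type), Itga3 (56.2 in knockout, 47.9 in wild type) and Itgb4 (47.6 in knockout, 43.0 in wild type) came next. In all 6 libraries the gene higher in this order was above the next one down to Itgb4, but Itgb4 was above Itga6 in 4 of 6 libraries, and these 2 neighbours were not separated beyond their spread. The order from Itga6 through Itgb5, Itga2 and Itga5 to Itgav held in all 6 libraries. Among the leukocyte genes, Itgb7 stood at 3.55 ± 0.855 CPM per kilobase in knockout and 1.68 ± 0.381 in wild type, rank 12 of 48 in knockout and rank 15 in wild type. Itgb2 was at 3.31 ± 1.29 CPM per kilobase in knockout and 1.3 ± 0.137 in wild type, and Itgal at 2.06 ± 0.721 in knockout and 0.729 ± 0.153 in wild type. Itgb7 was above Itgb2 in 5 of 6 libraries. From Itgav downward, every pair of neighbours changed places in at least 1 library.

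**Figure D5:**
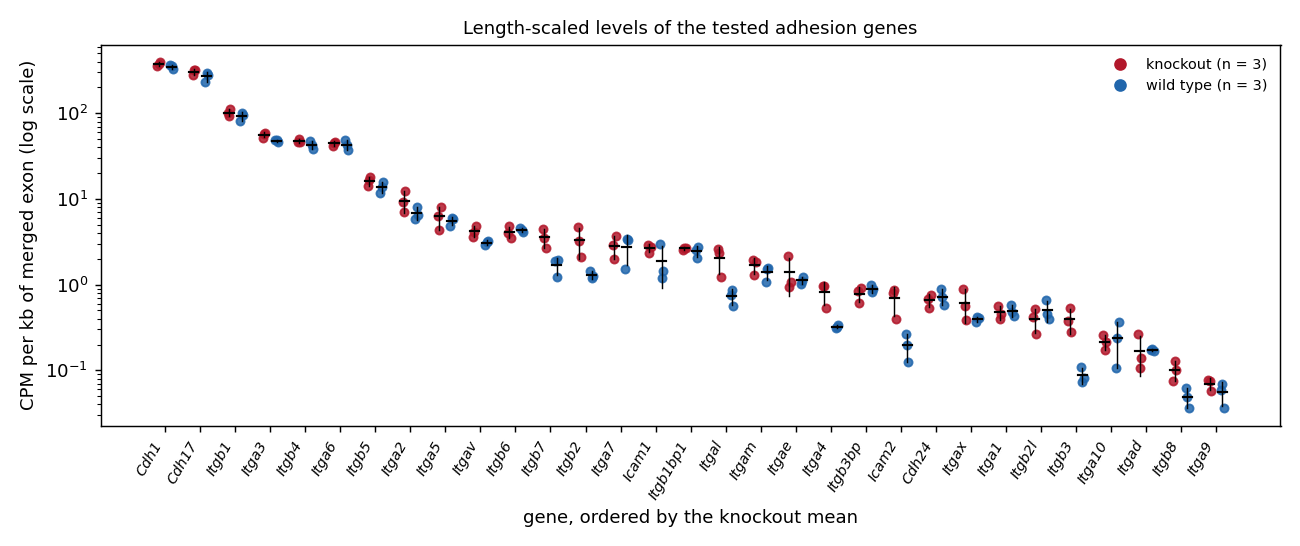
Level in CPM per kilobase of merged exon (y axis, log scale) of the 31 tested adhesion genes, ordered by their knockout mean (x axis); knockout points are left of wild-type points, and black lines are means and ± 1 SD (n = 3). Cdh1 and Cdh17 lead with knockout means of 375.8 and 303.3, and the leukocyte chain Itgb7 first appears at 3.55.

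Genes that work with these receptors were taken from 3 lists. Of 30 genes of integrin activation and focal adhesion, 24 were tested, and DESeq2 and the edgeR exact test each called 4 higher and 0 lower, beside 1.97% and 2.36% of all genes. These were Rasgrp2, which activates the Rap GTPases that turn integrins on, Parvg, the parvin of blood cells, Rassf5, a Rap effector that binds the Itgal integrin, and Fermt3, the kindlin of blood cells. Rasgrp2 had 5.06 ± 1.77 CPM in knockout and 1.45 ± 0.0673 CPM in wild type (SD, n = 3 each), with an adjusted p of 6.46e-05 by DESeq2 and 0.0982 by the quasi-likelihood test. The log2 fold changes were 1.80 for Rasgrp2, 1.64 for Parvg, 1.19 for Rassf5 and 0.89 for Fermt3. Fermt1, the kindlin of epithelia, averaged 190 ± 10.4 CPM in knockout and 191 ± 13 CPM in wild type, and talin, Tln1, averaged 183 ± 12.8 CPM in knockout and 172 ± 13.7 CPM in wild type. Tns4, a tensin of epithelia, was at 136 ± 31.8 CPM in knockout and 207 ± 48.1 CPM in wild type (log2 fold change -0.61), with an adjusted p of 0.403 by the quasi-likelihood test.

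Of the cadherin-catenin and desmosome list, 17 genes were tested, and 0 were called by DESeq2, the exact test or the quasi-likelihood test; before adjustment 1 had p under 0.05 by the quasi-likelihood test, in the lower direction, against 3.35% of all tested genes. That gene, the protocadherin-like Cdhr1, had 5.84, 6.18 and 5.95 CPM in knockout libraries and 7.98, 8.49 and 7.30 CPM in wild-type libraries, without overlap. The groups were also apart, in the other direction, for the plakophilin Pkp4, with 108 ± 6.51 CPM in knockout and 95.2 ± 7.98 CPM in wild type (SD, n = 3 each), which no tool called. Thus 1 of the 17 was lower and 1 higher without overlap, against 6.52% and 6.76% of all tested genes. These counts are close to those shares. Beta-catenin, Ctnnb1, which binds the tail of Cdh1, averaged 1179 ± 82.3 CPM in knockout and 1062 ± 114 CPM in wild type (SD, n = 3 each), with overlapping groups.

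Of the list of other adhesion receptors and integrin ligands of immune traffic, 14 genes were tested. DESeq2 and the exact test each called 3 of them higher, Vcam1 and Cd2 included, and 0 lower. Over all genes, DESeq2 called 1.97% higher and the exact test 2.36%. Vcam1, a ligand of the Itga4 integrins, had 2.62, 2.47 and 1.33 CPM in knockout libraries and 0.688, 0.269 and 0.718 CPM in wild-type libraries, with a log2 fold change of 1.90 ± 0.41 (SE). Wild-type replicate 2 was below the 0.470 CPM of the low-count filter, so Vcam1 passed it only through the knockout libraries. Its place among the tested genes thus already depended on a higher level there. Cd2, a lymphocyte adhesion receptor, had a log2 fold change of 1.58 ± 0.42 (SE). By the quasi-likelihood test the adjusted p was 0.141 for Vcam1 and 0.226 for Cd2. Madcam1, the ligand of the Itga4 and Itgb7 pair on gut venules, did not pass the filter, with 6, 13 and 2 counts in knockout libraries and 1, 0 and 4 counts in wild-type libraries.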

How the data were processed

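The authors deposited 1 table of read counts per gene, not normalised, for 22354 genes and 6 libraries. Per the labels' protocols, 51-base reads went through TopHat 2.1.0 (build mm10), HTSeq 0.5.4p5 with samtools 1.3.1 for counting, and edgeR 3.4.2. Bowtie 0.12.2 and a second build, mm8, also appear in the submitters' processing notes. Per the file headers, the comparison columns carry DESeq2's names, and the deposited table is itself named for DESeq2. The columns are therefore of DESeq2's form, although the protocols name edgeR 3.4.2. Calls in those columns come from the same counts as the calls made here and are not separate evidence. The mean normalised signal, log2 fold change, standard error and statistic (2 score columns), p-value and adjusted p-value in those columns were deposited by the authors and are used only where named. An adjusted p is empty there for 7824 genes. Whether counting used strand is not stated in the labels.

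From the counts, TMM-scaled CPM were computed. Genes that filterByExpr kept, 14180 in all, were compared between knockout and wild type by the quasi-likelihood test of edgeR 4.0.16 (R 4.3.3), group being the only term, with Benjamini-Hochberg adjustment over all of them. Standard errors are the log2 fold change over the square root of F. DESeq2 1.42.0, the edgeR exact test and limma-voom (limma 3.58.1) were alternatives, as were other scalings, filters, a replicate block and leaving out each library. The fits were tested on simulated counts. Mean log2 CPM used a prior count of 2. The level that 3 counts allow was 0.116 to 0.159 CPM per library, which covers counting error only.

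Coordinates, exon lengths and overlaps are from GENCODE M21 (mm10), which held all 48 genes, and promoters from RefSeq (GRCm38.p6). Shared sequence was counted as 51-base stretches of a gene's transcripts found in another gene. Replicate libraries all differed beyond sampling noise and were kept apart. Statistics in full were given for genes fixed by name and the 10 with the smallest p. From partner lists, up to 4 genes with the smallest p were named, and a few more for their role, after their values were seen. The genes and lists were chosen with earlier results of these data known. One gene of a partner list is not reported here.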

Additional observations from a re-analysis of the deposited data

How the results depend on the processing

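Counts of calls depended on the test. Against 0 adhesion genes and 0 genes in all by the quasi-likelihood test, DESeq2 called 5 adhesion genes and 327 in all, the edgeR exact test 6 and 381, the fit with no low-count filter 4 and 157, and an adjusted p of 0.1 called 2 and 92. RLE, upper quartile and total-count scaling, a mean count of at least 10, limma-voom and the replicate block called 0 of either. Leaving out 1 library at a time, the quasi-likelihood test called 0 to 5 adhesion genes and 0 to 266 genes in all (266 without knockout replicate 3, 17 without wild-type replicate 1). DESeq2 then called 4 to 6 adhesion genes, and 141, 222 and 370 genes in all without knockout replicates 1, 2 and 3, and 487, 216 and 216 without wild-type replicates 1, 2 and 3. The exact test, a check chosen after seeing the data, then called 4 to 7 adhesion genes. It called 190, 283 and 521 genes in all without knockout replicates 1, 2 and 3. Without wild-type replicates 1, 2 and 3 it called 608, 258 and 248 genes in all. The adhesion genes it called included Itga2 without knockout replicate 2. Itgav was called by DESeq2 and the exact test without knockout replicate 1.

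Leaving out 1 library changed the sign of the quasi-likelihood fold change for 9 tested adhesion genes, none of them called with all libraries: Itga1, Itga5, Itga7, Itga10, Itgad, Cdh24, Itga6, Itgae and Itgb6. Of those followed in full, Itga6 ran from -0.039 (without wild-type replicate 3; DESeq2 -0.033) to 0.16, Itgae from -0.14 (without knockout replicate 1, by both tools) to 0.52, and Itgb6 from -0.21 to 0.026 (without knockout replicate 3; DESeq2 0.019). Of 418 values of the genes followed in full, under alternatives, 363 kept direction and side of the threshold, 49 passed it and 6 changed sign. The leukocyte minus epithelial difference ran from 0.22 to 0.69. The difference between groups in the 7 log2 ratios to pan-leukocyte genes moved by less than 1 SD with Ptprc as denominator. Same-numbered libraries of the 2 groups did not deviate together (correlations -0.05, -0.14 and 0.14), so the numbers were not taken as pairs. Genes of few counts, such as Cdh5 and Itga2b, are limited by depth. The cause of these changes was not tested.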
